A study of Drosophila melanogaster with 6 samples.

Results

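The Toll pathway was examined in fly heads through 10 genes, taken by their FlyBase symbols alone. They were the ligand *spz*, its activating protease *SPE*, the serpin *nec*, the receptor *Tl*, the adaptors *Myd88* and *tub*, the kinase *pll*, the inhibitor *cact* and the NF-κB factors *dl* and *Dif*. All 10 were found among the 17492 genes of the count table, and all 10 held enough reads to be tested. The table holds polyadenylated RNA of whole heads, with 3 samples of 30d flies and 3 of 3d flies. Both ages were of strain 5905, a *w1118* line that served the study as wild type, so the *w* mutation is shared by all samples and age is the difference the labels give. In the study's methods the flies kept for aging were males collected at eclosion, but the sex of the flies and the number of heads behind each RNA sample are not given. The labels do not say whether the samples of an age came from separate cultures, so the p-values measure the spread between these samples, which may be partly technical.

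Toll signaling was first known for setting the dorsal-ventral axis of the fly embryo and is the main humoral defense of the adult against fungi and many Gram-positive bacteria. Pattern receptors in the hemolymph start a cascade of serine proteases that ends in the cleavage of Spätzle, the cleaved ligand binds Toll at the cell surface, and the death-domain proteins MyD88, Tube and Pelle carry the signal to Cactus. Destruction of Cactus frees Dorsal and Dif, which enter the nucleus and turn on antimicrobial peptide genes. The fat body and the blood cells, or hemocytes, are the best known sites of this response, and the adult head holds both.

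Reads assigned to genes numbered 3479385 to 3544615 per sample at 30d and 3176380 to 3741860 at 3d. Markers of neurons, glia and photoreceptors were read in every sample, as head tissue should show, while the hemocyte marker *He* and the muscle marker *TpnC4* stood at 6 or fewer counts in each. The summed level of 8 muscle markers lay between 1908 and 1997 CPM at 30d and between 3230 and 4823 CPM at 3d, with 3d replicate 1 the highest of all. CPM are counts brought to a common library size after TMM correction. Across all genes, 8773 were tested with edgeR's quasi-likelihood test, and 30.4% of them had an adjusted p-value under 0.05, here called a change. Over all of them the log2 fold changes had a median of 0.020.

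Of the 10 genes, 6 rose at 30d and 0 fell, with log2 fold changes between 0.28 and 0.37 for those that rose. These were *SPE*, *spz* and *nec* outside the cell and *cact*, *dl* and *Dif* at the end of the cytoplasmic pathway. Across all genes tested, 14.4% were called higher and 16.1% lower at 30d. For the 10 genes together the median log2 fold change was 0.28. *Tl*, *Myd88*, *tub* and *pll*, the receptor and the death-domain proteins, did not pass the threshold, and *Tl* alone had a fitted level below that at 3d. *Myd88* and *pll*, at 0.25 and 0.27, lay close to *dl* and *Dif*, at 0.28 and 0.29. Their standard errors were larger, at 0.12 and 0.20 against 0.09 and 0.07. A difference between the called and uncalled genes was not tested. At an unadjusted p under 0.05 in the same test, 6 genes were higher and 1, *Tl*, was lower, while DESeq2 called 4 higher and limma-voom 6, with 0 lower in both. Over all genes edgeR called 1259 higher and 1410 lower, DESeq2 741 and 1066, and limma-voom 1250 and 1407. The share of all genes at an unadjusted p was not counted, here or for the lists below. In whole heads, fewer cells of a type and less RNA per cell cannot be told apart in any of these values.

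**Figure D1:**
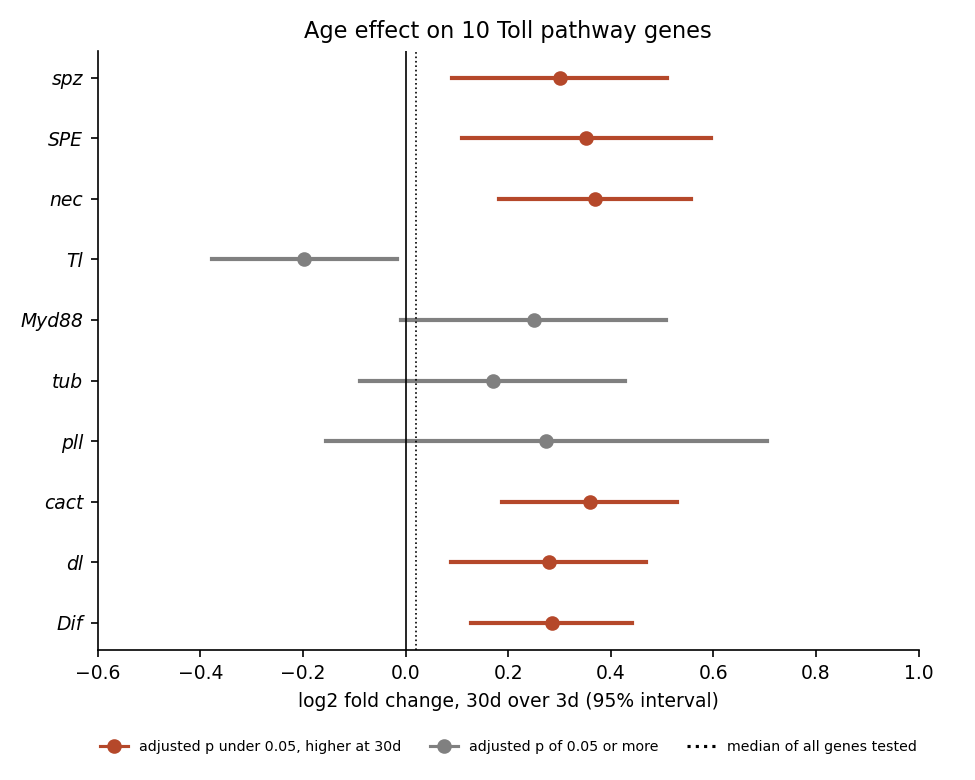
Log2 fold change of 30d over 3d for each of the 10 genes, in order of their place in the pathway, with the 95% interval of the edgeR fit as a bar. The 6 genes in red had an adjusted p-value under 0.05, the 4 in gray did not, the dotted line marks the median over all genes at 0.020, and *Tl* at -0.20 is the only gene left of 0.

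*SPE*, the Spätzle-processing enzyme, is the protease that cuts the ligand in the adult immune response. Its levels were 273.2, 323 and 322 CPM in the 30d samples, against 197, 248 and 273 CPM in the 3d samples. The highest 3d sample, replicate 3, came within 1 CPM of the lowest 30d sample, replicate 1, so the ages were barely apart. This was a 1.28-fold rise, or 0.35 on the log2 scale (standard error 0.11, edgeR, adjusted p = 0.0304). The spread between the 3d samples, with a coefficient of variation of 16.1%, was several times the 3.51% that counting error alone would give. Without 3d replicate 1, the lowest sample, the log2 fold change was 0.23 and the adjusted p-value 0.0881, and the call was also lost without 3d replicate 2, 30d replicate 2 or 30d replicate 3. *SPE* (FBgn0039102) lies on the plus strand of chromosome arm 3R of dm6, from 23686255 to 23688147, and 8.45% of its exon bases also belong to exons of *CG18754*, where a read lying wholly inside counts for neither gene.

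*spz* encodes Spätzle, the ligand, a cystine-knot growth factor made as an inactive precursor. It stood at 64.0, 67.0 and 71.5 CPM at 30d, against 55.2, 58.4 and 50.7 CPM at 3d. The 30d range thus began above the highest 3d value. The rise was 1.23-fold, or 0.30 on the log2 scale (standard error 0.10, edgeR, adjusted p = 0.0325). The gene (FBgn0003495) is on the minus strand of 3R, from 27064990 to 27070070. Its rise was close to the threshold, and of the 6 fits that dropped 1 sample, 2 kept the adjusted p-value under 0.05, with log2 fold changes between 0.25 and 0.35. The call was lost without 3d replicate 1, 3d replicate 3, 30d replicate 2 or 30d replicate 3.

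*nec* encodes Necrotic, a serpin that restrains the protease cascade upstream of Spätzle. Its levels were 295, 311 and 314 CPM at 30d, against 212, 260 and 241 CPM at 3d. The ages did not overlap, and 3d replicate 1 was again the lowest sample. The log2 fold change of 0.37 was the largest among the 10 genes (standard error 0.09, edgeR, adjusted p = 0.00646), and the gene passed in all 6 fits that left out a sample. *nec* (FBgn0002930) lies on the minus strand of 2R, from 7156477 to 7158241.

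The fat body secretes many hemolymph proteins, and all 7 of its markers had fitted levels above those at 3d. Their summed level, over 7 genes led by *apolpp*, lay between 8528 and 10597 CPM at 30d and between 7736 and 8304 CPM at 3d. Of the 7 fat body markers 2 were called higher and 0 lower by edgeR, beside 14.4% and 16.1% of all genes. At an unadjusted p under 0.05 in edgeR 4 were higher and 0 lower, and DESeq2 and limma-voom each called 3 higher and 0 lower. The summed level of 8 hemocyte markers lay between 838 and 961 CPM at 30d and between 793 and 813 CPM at 3d. *Hml* was the highest marker at 30d. Of the 7 tested, 4 were called higher and 1 lower, beside the same shares of all genes. The single markers differed among themselves. In 30d replicate 1 the fat body sum, of which *apolpp* and *FASN1* made up 89.4%, was 1.06 times its 3d mean. *Lsd-1* stood there at 1.497, *ppl* at 1.19 and *Apoltp* at 1.17, but *AkhR* at 0.919 and *Ilp6* at 0.931. The 4 hemocyte markers called higher, *Hml*, *srp*, *Sr-CI* and *NimC1*, were at 1.20 to 1.37 in that sample. *Pxn*, the marker called lower, was at 0.656, and *eater* and *crq*, not called, were at 0.796 and 0.978. *SPE* stood there at 1.14, *nec* at 1.24 and *spz* at 1.17 times their 3d means. The part of these cells in the rises was not tested.

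*Tl*, the Toll receptor itself, did not share in the rise. It stood at 100.5, 99.8 and 87.0 CPM at 30d, against 115, 108 and 107 CPM at 3d. Each 30d sample was thus below each 3d sample, as for 22.5% of all genes tested. The log2 fold change was -0.20 (standard error 0.08, 95% interval -0.38 to -0.02), and it missed the threshold after adjustment over all genes (edgeR, adjusted p = 0.0937). In the 13 alternative fits the log2 fold change of *Tl* stayed between -0.23 and -0.12, and none of them brought the adjusted p-value under 0.05. *Tl* (FBgn0262473) is on the plus strand of 3R, from 26799041 to 26842403, and no other gene overlaps its exons.

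MyD88, Tube and Pelle bind each other through their death domains below the activated receptor. *Myd88* (FBgn0033402, 2R, 9302823 to 9308722, minus strand) stood at 49.0, 60.2 and 62.7 CPM at 30d, against 43.0, 53.3 and 47.7 CPM at 3d. The lowest 30d sample lay within the 3d range, and the log2 fold change of 0.25 had a 95% interval of -0.01 to 0.51 (edgeR, adjusted p = 0.135). Without that sample, 30d replicate 1, it was 0.35 with an adjusted p-value of 0.0328.

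*tub* (FBgn0003882, 3R, 4387742 to 4389813, plus strand) encodes the adaptor that links MyD88 to Pelle. Its levels were 46.6, 45.9 and 49.5 CPM at 30d, against 34.8, 48.3 and 42.4 CPM at 3d. The ages overlapped, with 3d replicate 1 the lowest, and the interval of the log2 fold change ran from -0.09 to 0.43 around 0.17 (edgeR, adjusted p = 0.309). *pll* (FBgn0010441, 3R, 27251131 to 27253182, minus strand), the kinase of the IRAK family, had the lowest level of the 10 genes. It was read with 64, 47 and 64 counts at 30d, against 31, 48 and 56 counts at 3d, so that counting error alone gives a coefficient of variation of 13.1% at 30d and 14.9% at 3d. Its log2 fold change of 0.27 carried a 95% interval of -0.16 to 0.70 (edgeR, adjusted p = 0.325), which holds both no change and a rise larger than that of any of the 6 genes called. The coefficient of variation between samples was 18.1% at 30d and 24.1% at 3d, above counting error at both ages.

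*cact* encodes Cactus, the IκB protein that keeps Dorsal and Dif in the cytoplasm and is itself a known target of Toll signaling. It stood at 183, 171 and 172 CPM at 30d, against 133, 147 and 130 CPM at 3d. All 30d samples were above all 3d samples. It rose by 0.36 on the log2 scale (standard error 0.08, edgeR, adjusted p = 0.00430). This was the smallest p-value among the 10 genes. *cact* (FBgn0000250) lies on the minus strand of 2L, from 16313036 to 16326207, and shares 1.87% of its exon bases with *fzy*.

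*Dif* encodes the NF-κB factor that acts in the immune response of the adult to fungi and Gram-positive bacteria. Its levels were 196, 195.5 and 203 CPM at 30d, against 163, 158 and 167 CPM at 3d. It had the tightest replicates of the 10 genes at 30d, with a coefficient of variation of 2.25%, and the ages were well apart. The log2 fold change was 0.29 (standard error 0.07, edgeR, adjusted p = 0.0101). *dl* encodes Dorsal, the factor that patterns the embryo and also acts in immunity. It stood at 91.5, 89.7 and 80.1 CPM at 30d, against 72.6, 72.9 and 69.9 CPM at 3d, again without overlap. Its log2 fold change was 0.28 (standard error 0.09, edgeR, adjusted p = 0.0288), but the adjusted p-value stayed under 0.05 in 1 of the 6 fits that left out a sample, the one without 30d replicate 3. *Dif* (FBgn0011274, 17413248 to 17433161) and *dl* (FBgn0260632, 17436830 to 17450364) are neighbors on the minus strand of 2L, with 3668 bases between them, and 4.42% of the exon bases of *Dif* overlap *CG15141*.

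**Figure D2:**
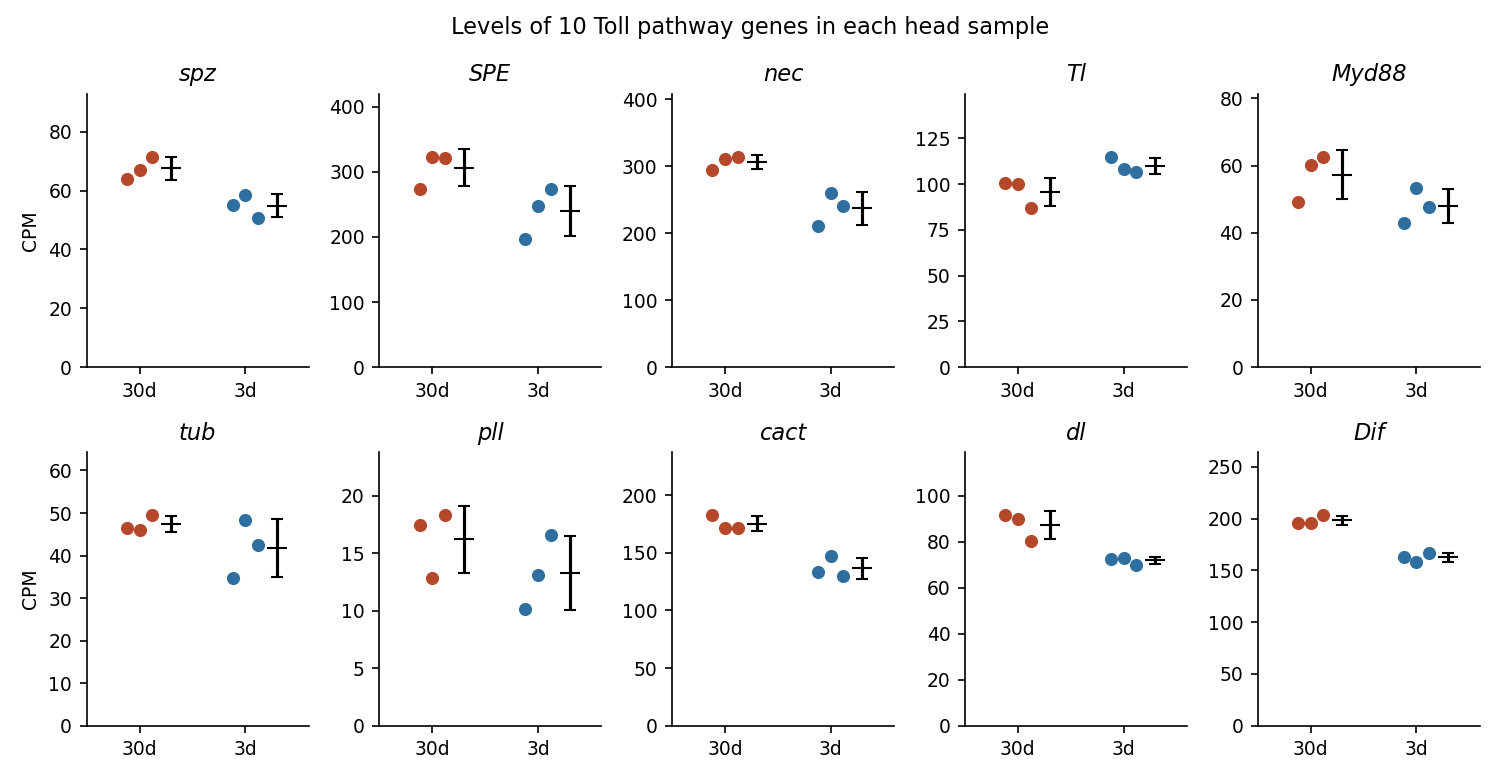
Level in CPM of each of the 10 genes in every head sample, 30d in red left of 3d in blue, with replicates 1 to 3 from left to right and the mean and SD (n = 3) as a black bar. For *SPE*, *spz*, *nec*, *cact*, *dl* and *Dif* all 30d samples lie above all 3d samples, *Tl* shows the reverse, and the other 3 genes overlap.

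In 6 of the 10 genes, the same that were called, all 30d samples lay above all 3d samples, and in 1 all lay below. Over all genes tested the corresponding shares were 22.3% and 22.5%. The calls of *nec*, *cact* and *Dif* held in all 7 alternatives and in all 6 fits that left out a sample. Those of *spz* and *dl* were lost with DESeq2's Wald test, at an adjusted p-value of 0.177 and 0.162. The count of genes called higher was 3 without 3d replicate 1 and 3 without 30d replicate 2, and in both fits the 3 were *nec*, *cact* and *Dif*. Over all genes the count called higher also fell in these fits, to 963 and 876, from 1259 with all samples. With libraries scaled by their size alone, all genes split into 1715 higher and 1053 lower, against 1259 higher and 1410 lower after TMM, and the median over all genes lay 0.077 higher on the log2 scale.

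Levels were compared between genes per length, as RPKM, the CPM divided by the exon length in kilobases outside overlaps. *SPE* stood highest in both ages, at 264 ± 24.6 RPKM at 30d and 206 ± 33.2 RPKM at 3d (SD, n = 3 each), and *nec* came next, at 188 ± 6.34 and 145 ± 14.9 RPKM. Over all 6 samples these secreted proteins lay at the 96.6th and 95.2nd percentile of the genes tested. *cact*, *Dif* and *spz* followed in this order, and at 30d no sample of a gene in these first 5 places overlapped the gene ranked after it. Further down, *Tl*, *Myd88* and *dl* at 30d, and *spz*, *Tl* and *tub* at 3d, overlapped their neighbors in the order. *tub* ranked above *Tl* at 30d, at 23.6 against 18.4 RPKM with no overlap, whereas at 3d they were at 20.9 and 21.1 RPKM. *pll* was last, at 8.53 RPKM at 30d and 7.0 RPKM at 3d, 30.3 times below *SPE* over all samples. *Dif* stood 2.68 times above *dl*. The lengths are unions over all isoforms, so that RPKM understate genes whose shorter isoforms are the ones expressed.

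Ratios between partners within a sample do not depend on the scaling of the libraries. After the levels were seen, 7 such ratios of levels per length were formed along the pathway. The ratio of ligand to receptor, *spz* to *Tl*, was 1.40, 1.48 and 1.81 at 30d, against 1.06, 1.19 and 1.05 at 3d. The ages did not overlap, and the ratio averaged 1.56 ± 0.22 at 30d and 1.10 ± 0.08 at 3d (SD, n = 3 each). An exact two-sided permutation test gave p = 0.1, the smallest that 3 samples against 3 allow, or 0.7 after adjustment over the 7 ratios. The other 6 overlapped between the ages. The ratio of *cact* to the sum of *dl* and *Dif*, inhibitor to factors, was 1.12, 1.05 and 1.06 at 30d, against 0.990, 1.12 and 0.958 at 3d (exact permutation p = 0.3, adjusted 0.9). The ratio of *dl* to *Dif* averaged 0.372 ± 0.034 at 30d and 0.374 ± 0.018 at 3d, and that of *nec* to *SPE* 0.715 ± 0.046 at 30d and 0.710 ± 0.073 at 3d (SD, n = 3 each; exact permutation p = 0.9 for both, adjusted 0.9). Ratios of *SPE* to *spz*, *Myd88* to *tub* and *pll* to *tub* gave exact p-values from 0.6 to 0.9 by the same permutation test, all 0.9 after adjustment. With 3 samples of each age, these tests cannot show that the partners moved alike.

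**Figure D3:**
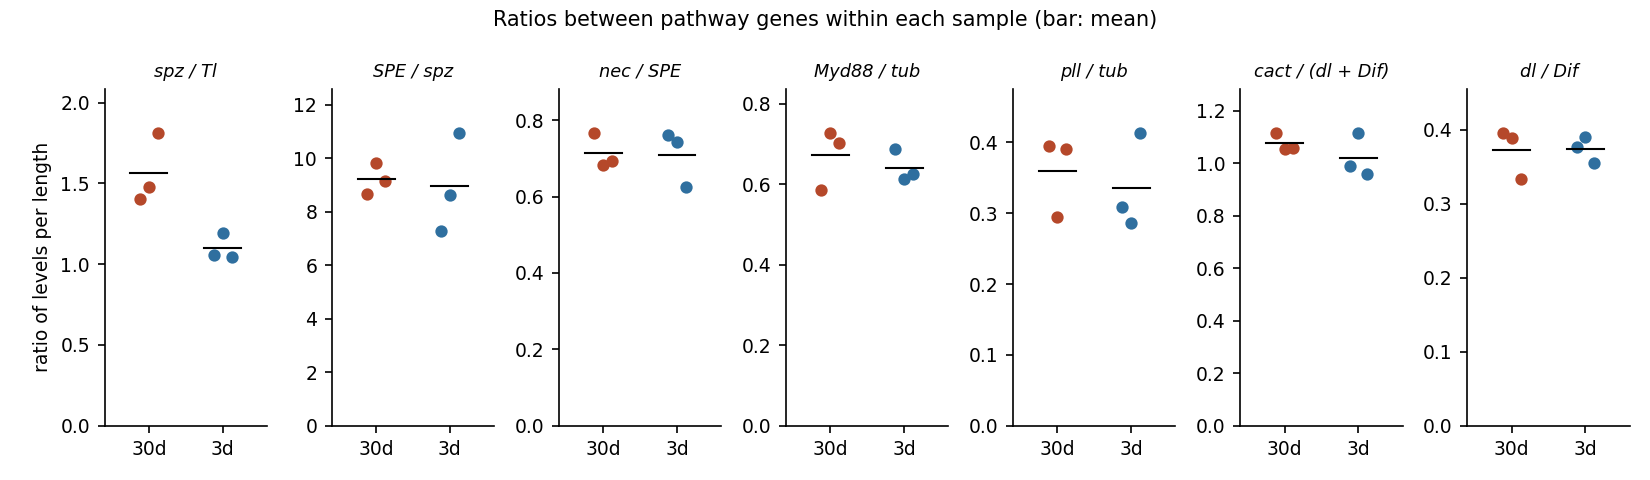
Ratio of levels per length between pathway partners within each head sample, 30d in red left of 3d in blue, with bars at the mean. The ages are apart only for *spz* over *Tl*, with means of 1.56 at 30d and 1.10 at 3d, and overlap for the other 6 ratios.

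The rest of the pathway was followed through 5 further lists of 44 genes, of which 43 were found and 28 tested. Among these 28, edgeR called 11 higher and 4 lower at 30d, beside 14.4% and 16.1% of all genes, with a median log2 fold change of 0.14. The calls lay unevenly over the lists. Upstream of Spätzle, 9 of the 11 genes tested rose and 0 fell, with a median of 0.44. In 10 of the 11 all 30d samples lay above all 3d samples, beside 22.3% of all genes tested. At an unadjusted p under 0.05 the same test gave 10 higher and 0 lower there, DESeq2 called 5 higher and 0 lower, and limma-voom 9 and 0. Without 30d replicate 3, 5 of the 11 were called higher. The largest rises were in *PGRP-SD* and *PGRP-SA*, secreted receptors that bind bacterial peptidoglycan. *PGRP-SD* stood at 55.8, 46.8 and 38.3 CPM at 30d, against 12.8, 13.4 and 15.4 CPM at 3d and rose by 1.76 on the log2 scale (standard error 0.16). *PGRP-SA* stood at 19.3, 22.2 and 20.9 CPM at 30d, against 8.54, 9.83 and 11.3 CPM at 3d and rose by 1.07 on the log2 scale (standard error 0.16). For both, the lowest 30d sample was well above the highest 3d sample. *Spn27A*, a serpin that holds back the melanization proteases, rose by 0.65 on the log2 scale, and *spirit*, a serine protease of the cascade, rose by 0.46 with an adjusted p-value of 0.0367. The call of *spirit* was lost with DESeq2 and in 5 of the 6 fits that left out a sample, all but that without 30d replicate 2. As given above, the fat body and hemocyte sums were higher at 30d too, and their part was not tested.

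The genes of the cascade that activates Spätzle in the embryo were mostly under the filter on low counts. Of 6 genes, 2 passed it. Of these 2, *ea*, the protease that cuts Spätzle in the embryo, was called higher, beside 14.4% of all genes tested. It rose by 0.48 on the log2 scale, at 26.9 ± 2.22 CPM at 30d and 19.2 ± 1.92 CPM at 3d (SD, n = 3 each). Its call was lost with DESeq2 and without 3d replicate 1 or 30d replicate 2. The other gene tested, *wbl*, needed in the egg chamber for the sulfotransferase Pipe, had a log2 fold change of -0.88 (95% interval -1.82 to 0.07, edgeR, adjusted p = 0.150). The other Spätzle ligands showed 0 calls in either direction among the 2 of 5 tested, also at an unadjusted p under 0.05 in edgeR and with DESeq2 or limma-voom. Of the other Toll receptors 7 were found and 3 tested. *Toll-6* and *Toll-7*, which act as neurotrophin receptors in the nervous system, both fell at 30d, beside 16.1% of all genes tested. *Toll-6* stood at 41.1, 32.8 and 28.3 CPM at 30d, against 60.8, 47.0 and 57.5 CPM at 3d, and *Toll-7* at 34.1, 34.7 and 34.0 CPM at 30d, against 49.6, 38.8 and 45.0 CPM at 3d. Neither overlapped between the ages, and the log2 fold changes were -0.68 (standard error 0.14) and -0.37 (standard error 0.11). The call of *Toll-7* was lost with library size alone and with DESeq2, and without 3d replicate 1, 3d replicate 3, 30d replicate 2 or 30d replicate 3. The 6 neuron markers summed to between 3989 and 4367 CPM at 30d and between 5326 and 6530 CPM at 3d. Among all genes tested 16.1% were called lower, and of these 6 markers 5 were. Their part in the fall of these receptors was not tested.

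Among 10 cytoplasmic regulators tested, 1 rose and 2 fell, shares near the 14.4% and 16.1% of all genes, with a median log2 fold change of -0.13. *cactin*, named for its binding to Cactus, rose by 0.47 on the log2 scale (standard error 0.14). *Pli*, which encodes Pellino, an E3 ligase that binds Pelle, had a log2 fold change of -0.32, and *Deaf1*, a transcription factor needed for full expression of some Toll targets, of -0.32. *Deaf1* lay at 63.7, 64.0 and 63.8 CPM at 30d, against 85.1, 76.7 and 77.1 CPM at 3d. Its call was lost with library size alone (adjusted p = 0.0562, edgeR) and with DESeq2, and without 3d replicate 1 or 30d replicate 2, while that of *Pli* was lost only without 30d replicate 2. The call of *cactin* was lost with DESeq2 and in 4 of the 6 fits with a sample removed (3d replicate 1 or 2, 30d replicate 1 or 2).

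**Figure D4:**
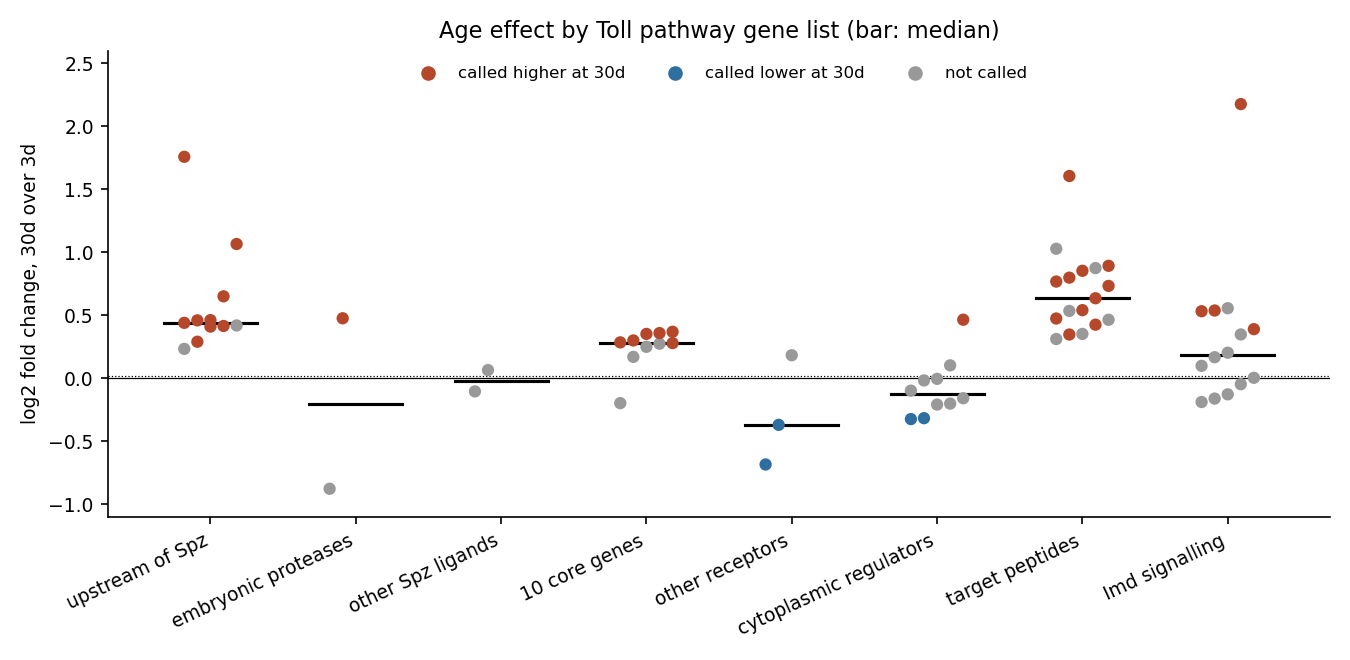
Log2 fold change of 30d over 3d for each gene tested in 8 lists, red where called higher at 30d, blue where called lower and gray otherwise, with the median of each list as a bar. Genes upstream of Spätzle, the 10 core genes and the target peptides have medians of 0.44, 0.28 and 0.64, and the other receptors and cytoplasmic regulators have medians of -0.37 and -0.13.

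At the output of the pathway, 11 of the 17 peptide and effector genes tested were called higher and 0 lower at 30d, beside 14.4% and 16.1% of all genes, with a median log2 fold change of 0.64. At an unadjusted p under 0.05 in edgeR 14 were higher and 0 lower, and DESeq2 and limma-voom called 11 and 10 higher and 0 lower. The summed level of the list was 1.22, 1.74 and 1.56 times its 3d mean in 30d replicates 1, 2 and 3, and the fat body sum was 1.06, 1.31 and 1.29 times its own, both at their lowest of the 30d samples in replicate 1. The part of the fat body in the rises was not tested. *Mtk*, the antifungal peptide metchnikowin, which Imd signaling drives as well, stood at 113, 147 and 73.0 CPM at 30d, against 47.0, 39.3 and 23.4 CPM at 3d. The Bomanins are short secreted peptides needed for resistance through Toll. *BomS6* stood at 345, 372 and 417 CPM at 30d, against 170, 222 and 217 CPM at 3d, a log2 fold change of 0.89 (standard error 0.11). *BomS5* and *BomBc3* rose by 0.85 and 0.80 on the log2 scale, also without overlap between the ages. The Bomanins are paralogs, and how reads that match more than 1 copy were counted was not examined. *Drs*, the classical Toll readout drosomycin, was picked out after its values were seen. It stood at 31.6, 214 and 87.0 CPM at 30d, against 96.6, 28.1 and 41.5 CPM at 3d. The ages overlapped, with 30d replicate 2 and 3d replicate 1 far above the other samples of their age, and its log2 fold change of 1.03 had a 95% interval of -0.11 to 2.17.

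For comparison, 14 genes of Imd signaling, the other NF-κB pathway of fly immunity, were taken. Of the 14, 4 rose and 0 fell, beside 14.4% and 16.1% of all genes, with a median log2 fold change of 0.19, against 6 of 10 and 0.28 for the Toll genes. At an unadjusted p under 0.05 the Imd genes gave 4 higher and 2 lower in edgeR, and DESeq2 called 3 and limma-voom 4 higher, with 0 lower in both. Neither the difference between the pathways nor the part of fat body and hemocytes, whose summed markers were higher at 30d, was tested. Among the hemocyte markers, *Pxn* was called lower. *Rel*, the NF-κB factor of this pathway, stood at 170, 151 and 146 CPM at 30d, against 128, 101 and 94.5 CPM at 3d. The ages did not overlap, and the log2 fold change was 0.53 (standard error 0.11, edgeR, adjusted p = 0.00270), beside 0.29 for *Dif* and 0.28 for *dl*. *Tab2*, an adaptor of the kinase TAK1, rose by 0.54 on the log2 scale. *pirk*, an inhibitor of the Imd receptors, rose by 2.18 on the log2 scale from low counts, with 55, 23 and 30 counts at 30d, against 2, 10 and 10 counts at 3d. *Dredd*, the caspase that cleaves Relish, rose by 0.39 on the log2 scale, a call lost with DESeq2 and without 3d replicate 1, 3d replicate 3, 30d replicate 2 or 30d replicate 3.

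**Figure D5:**
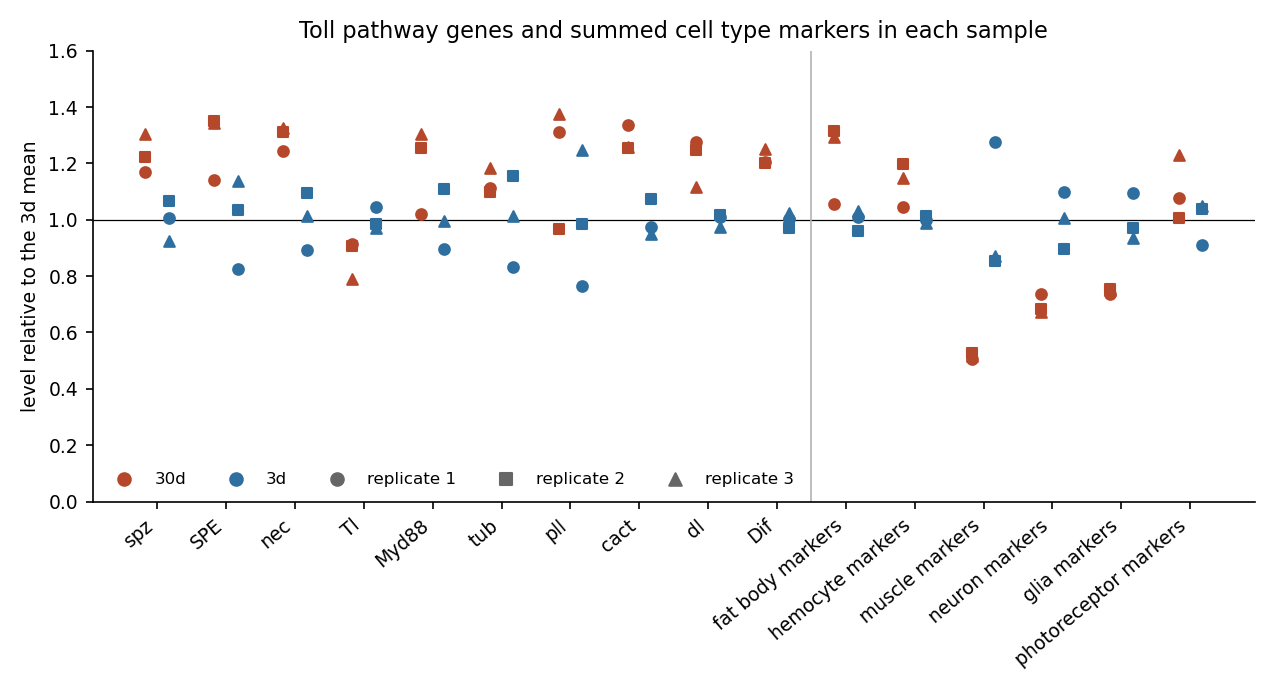
Level of each of the 10 genes, and of the summed markers of 6 cell types, in every head sample relative to the mean of the 3d samples, with 30d in red and 3d in blue and a symbol for each replicate. In 30d replicate 1 *cact* is at 1.34 and *Dif* at 1.20, the sums of fat body and hemocyte markers, whose single genes differ widely, are at 1.06 and 1.05, and the muscle sum is highest in 3d replicate 1, at 1.27.

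The rises at the end of the cytoplasmic pathway were also set beside the markers sample by sample. *cact* stood at 1.34, 1.25 and 1.26 times its 3d mean in 30d replicates 1, 2 and 3, *dl* at 1.27, 1.25 and 1.12, and *Dif* at 1.20, 1.20 and 1.25. In the same samples *Hml* stood at 1.20, 1.48 and 1.40, *Sr-CI* at 1.34, 1.26 and 1.45, and *Lsd-1* at 1.497, 2.04 and 2.11, against fat body sums of 1.06, 1.31 and 1.29. The 3 Toll genes and these 3 markers were above their 3d mean in each 30d sample, but some other markers were not. *Pxn* stood at 0.656, 0.648 and 0.628 in these samples and *eater* at 0.796, 0.994 and 0.650. *AkhR* and *Ilp6* were at 0.919 and 0.931 in 30d replicate 1. The part of fat body and hemocytes in the rises was not tested. In 3d replicate 1, where the muscle sum was 1.27 times the 3d mean, *SPE*, *nec*, *Myd88*, *tub* and *pll* were each at their lowest of all 6 samples, between 0.766 and 0.896 times their 3d means. The neuron and glia sums were also highest there, at 1.099 and 1.096, as was *Tl*, at 1.046. *spz*, *dl*, *Dif* and *cact* were at 1.008, 1.011, 1.003 and 0.976.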

How the data were processed

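RNA of 6 head samples was polyadenylated-selected and sequenced from a single end. The authors used STAR for alignment to dm6 and HTSeq for counting per gene, in intersection-strict mode and without strand, so a read lying wholly in exons of several genes counts for none. The deposited values are raw counts. The annotation release is not given in the sources used here, and 0 sample columns were left unused. Symbols, dm6 positions and exon overlaps came from the Ensembl annotation, which held 17356 of 17492 identifiers. Of 129 genes in 14 lists, 127 were found, 3 of them through synonyms in the RefSeq gene table. *18w* and *BaraA2* were not analysed here.

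Counts were fitted in R 4.3.3 with edgeR 4.0.16 (default filter by age, minimum count 10, TMM, two-sided quasi-likelihood test of 30d against 3d, Benjamini-Hochberg adjustment over 8773 genes, threshold 0.05). Standard errors are the size of the log2 fold change over the square root of F. Alternatives were DESeq2 size factors or library size alone, the DESeq2 1.42.0 Wald test, limma-voom (limma 3.58.1), a loose filter (1 count), a strict filter (10 counts in each sample), a block for the replicate number, and each sample left out. The fit was tested on simulated data. Ratios used SciPy 1.17.1. Members and lists were chosen with earlier results of these data known. Named from each further list were up to 4 called genes with the largest rises and falls. Of the cell type markers, the highest of a list and those at or near 0 were to be named. *wbl*, *Drs* and the other markers named were picked after their values were seen. Intervals cover the spread between samples, and reads carry no molecular identifiers. Pairs of replicates differed by more than counting error (chi-squared over its degrees of freedom 2.21 to 5.87).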

Additional observations from a re-analysis of the deposited data

How the results depend on the processing

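The directions of all 10 Toll genes were kept under all 13 alternatives. With DESeq2's Wald test the genes called higher over the whole table numbered 741, the further Toll lists had 5 genes higher and 2 lower, and 4 of the 10 Toll genes were higher. With library size alone the further lists had 2 genes lower. The cause was not tested. With each sample left out, the Toll genes called higher numbered 3 to 6, and the further lists had 6 to 9 genes higher and 1 to 4 lower. Over all genes these fits called 876 to 1205 higher and 1003 to 1391 lower, against 1259 and 1410 with all samples. The further lists had 6 higher without 3d replicate 1, 7 without 30d replicate 2 and 7 without 30d replicate 3, and 2 lower without 3d replicate 1 and 1 without 30d replicate 2. Same-numbered samples of the ages share only a number: their deviations correlated at 0.14, 0.017 and 0.052, and not every sample correlated best with its own number. With the replicate number as a block, 6 of the 10 Toll genes were higher and 0 lower, and 2907 genes were called in all, against 2669 without it. At 3176380 to 3741860 counts a sample, genes under the filter on low counts were not tested.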
